A study of Oryctolagus cuniculus with 4 samples.

Results

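MYH1, MYH4 and MYH7, the adult myosin heavy chains with a named feature in the rabbit count table, were examined in every capture spot of 4 Visium sections of supraspinatus muscle. They were chosen by name and are 3 of 21139 features. Visium counts unique molecular identifiers (UMIs), 1 for each captured transcript end, in barcoded spots under a tissue section. All rabbits were female New Zealand White, skeletally mature at 6 months, and every section was cut from the posterior distal muscle. The fresh healthy section came from muscle that was snap frozen and processed without long storage. The stored healthy, 2-week and 16-week sections had been kept frozen for 6 years. The 2-week and 16-week sections came from muscle 2 and 16 weeks after tenotomy, the surgical detachment of the supraspinatus tendon. The labels give the stored healthy and 16-week sections the same animal number and opposite sides, so by label they are the 2 shoulders of 1 rabbit. Each condition is 1 section. There was therefore no replicate check and no test, and capture area cannot be told apart from condition. Side cannot be told apart from tenotomy, since by label the healthy sections are right and the tenotomy sections left. Animal cannot be told apart from condition except between the stored healthy and 16-week sections. Storage differs only between the fresh section and the others. The intervals given are 95%, except those of ratios between medians, which were built from the ends of 2 such intervals. Those of UMI counts, of UMI shares and of UMI ratios cover counting error within a section. Those of shares of spots and of medians over spots treat the spots of a section as separate draws, though such spots are not replicates. None covers the spread between sections or animals.

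Myosin heavy chain is the motor protein of the thick filament, and the isoform that a fiber makes sets how fast it contracts. MYH7 encodes the slow isoform of type I fibers, which rely on oxidative metabolism. MYH1 and MYH4 encode the fast isoforms of type IIx and type IIb fibers. A fiber that makes more than one isoform is called a hybrid fiber, a state known from muscle whose fiber type is changing. A Visium spot can cover parts of several fibers, so a spot with 2 isoforms can cover 2 fibers of different type or 1 hybrid fiber, and these cannot be told apart here. Nor can fewer fibers of a type be told apart from less transcript per fiber. Other ways in which transcripts of a second isoform could reach a spot were not examined.

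Some limits of naming apply to every value. The count table holds 0 features named MYH2, the type IIa isoform, so type IIa fibers have no share of their own. Whether their transcripts were counted under another feature is not known. In the RefSeq gene table of a newer rabbit assembly, MYH4 stands as a synonym of MYH1. The genes are near-identical in places, and how the counting split their reads is not known, so the division between MYH1 and MYH4 is uncertain. MYH8, the perinatal isoform, had its own feature with 83 UMIs in fresh healthy muscle, 878 in stored healthy muscle, 975 at 2 weeks and 208 at 16 weeks. MYH7B, a relative of MYH7, had between 93 and 716 UMIs in a section. MYH13, known from eye muscles, had between 40 and 208. The nonmuscle and smooth muscle features MYH9, MYH10 and MYH11 held between 9 and 420 UMIs each. Every one of these was far below MYH1 and MYH7, but not always below MYH4. In stored healthy muscle MYH4 had 292 UMIs, against 878 of MYH8 and 716 of MYH7B. At 16 weeks it had 42, against 208 and 496.

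The sections held 854 to 2440 spots and 4079313 to 12536450 UMIs, with a median of 2090 UMIs per spot at 16 weeks and 5195 in stored healthy muscle as the extremes. Mitochondrial genes took 49.3% of UMIs in fresh healthy muscle, 49.2% in stored healthy muscle, 33.8% at 2 weeks and 34.6% at 16 weeks. Together the 3 myosins made up 2.34%, 1.85%, 5.85% and 2.36% of UMIs in that order. DES, a muscle marker, was found in every section at 2.18 to 3.78 UMIs per 10000. The sections share spot barcodes, since the same array is printed in each capture area. Between 602 and 1603 of 2931 distinct barcodes were common to a pair of sections, which marks shared array positions and not shared tissue.

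MYH1 was the main isoform of the fresh healthy and the 2-week section, and MYH7 the main isoform of the stored healthy and the 16-week section. In fresh healthy muscle MYH1 had 140694 UMIs, MYH4 186 and MYH7 23662, and MYH1 took 85.5% of the sum of the 3 (interval 85.3 to 85.7). In the stored healthy section the UMIs were 103154, 292 and 128627, and MYH7 took 55.4% (55.2 to 55.6). At 2 weeks they were 190989, 16259 and 31584, and MYH1 took 79.97% (79.8 to 80.1). At 16 weeks they were 36093, 42 and 75719, and MYH7 took 67.7% (67.4 to 68.0). The 2 healthy sections thus had different leading isoforms, and the MYH7 share of the 16-week section was nearer to that of the stored healthy muscle of the same rabbit than to either of the other two.

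Set against all UMIs, MYH1 stood at 200 per 10000 UMIs in fresh healthy muscle, 82.3 in stored healthy muscle, 468 at 2 weeks and 76.1 at 16 weeks. MYH7 stood at 33.7, 103, 77.4 and 160 per 10000 in the same order. MYH4 stood at 0.265, 0.233, 39.9 and 0.0885 per 10000. Each count is of transcript ends, so these levels were not divided by gene length.

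Between the healthy sections, MYH1 was 0.410 times as high in stored as in fresh muscle (0.407 to 0.414) and MYH7 3.04 times as high (3.001 to 3.09). MYH4 gave a ratio of 0.879 with an interval that includes 1 (0.729 to 1.06). A change of at least 2-fold was common over all genes with at least 50 UMIs in a pair of sections. It was seen in 16.8% of genes between the healthy sections, in 25.9% between 2 weeks and stored healthy, and in 45.7% between 16 weeks and stored healthy. Both tenotomy comparisons use the same stored healthy section. The median gene also moved, with a log2 ratio of 0.59 at 2 weeks and 0.89 at 16 weeks over stored healthy.

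At 2 weeks MYH1 was 5.69 times (5.65 to 5.73) and MYH4 171 times (152 to 193) its level in stored healthy muscle. MYH4 ranked 2 and MYH1 33 of 4289 genes by this ratio. MYH7 was at 0.755 of the stored level (0.745 to 0.764), which is a log2 ratio of -0.41 and of -0.999 relative to the median gene. At 16 weeks MYH1 was at 0.925 (0.914 to 0.936), MYH4 at 0.380 (0.268 to 0.527) and MYH7 at 1.56 (1.54 to 1.57) of the stored level. Relative to the median gene all 3 were lower at 16 weeks, with MYH7 at 0.840 of it, so that the rise of MYH7 holds on the scale of UMIs per 10000 and turns when measured against the typical gene. In spots with at least 20 UMIs of the 3 genes, the 16-week ratio of MYH1 was 1.001.

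Shares within a spot do not depend on that scaling, because the 3 genes are divided by their own sum. A share was computed where a spot had at least 20 UMIs of the 3 genes. This kept 1679 of 1950 spots in fresh healthy muscle, 2281 of 2440 in stored healthy muscle, 826 of 854 at 2 weeks and 1109 of 1726 at 16 weeks. The 617 spots left out at 16 weeks had a median of 972 UMIs, against 3187 in those kept. They also held higher levels of markers of other tissues. The 7 connective tissue markers summed to 246 UMIs per 10000 in them. In the kept spots grouped by MYH7 share the same markers summed to 52.2 to 61.1. In the spots left out, 4 adipose markers reached 25.6 per 10000. LPL made up most of that adipose sum, and whether it reflects adipose tissue was not tested. The 16-week shares therefore describe the muscle-rich spots of that section.

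**Figure D1:**
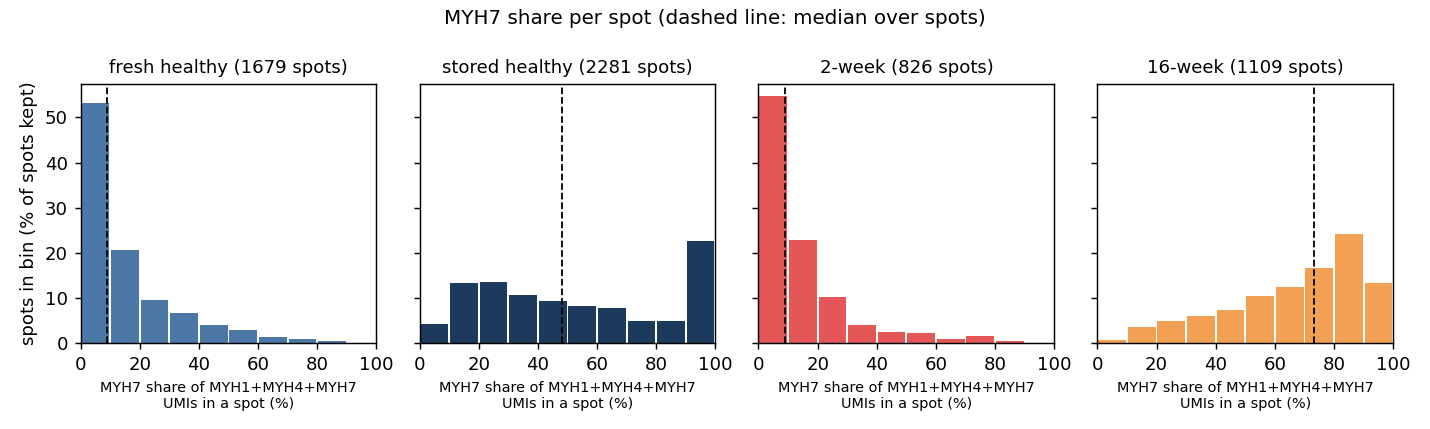
The share of MYH7 in the UMIs of MYH1, MYH4 and MYH7 per spot (horizontal axis, %) against the share of kept spots in each bin of 10 points (vertical axis, %), for 1679, 2281, 826 and 1109 spots. The fresh healthy and 2-week sections pile up at the low end with medians of 8.97% and 8.84%, the 16-week section leans to the high end with a median of 73.3%, and the stored healthy section spreads over the whole axis with a separate bar of 515 spots above 90%.

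The distribution over spots took 3 shapes. In fresh healthy muscle the median spot had an MYH7 share of 8.97%, and the middle 50% of spots ran from 4.29% to 20.8%. At 2 weeks the median was 8.84%, with the middle 50% from 5.05% to 18.0%. The quartiles of these 2 sections were within 3 points of each other. The 16-week section was turned the other way, with a median of 73.3% and quartiles of 52.2% and 85.2%. The stored healthy section had no single center. Its quartiles were 25% and 85.7% around a median of 48.1%, its bins rose to 310 spots between 20% and 30% and fell to 111 spots between 70% and 80%, and 515 spots lay at 90% or more.

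Single spots show what these shares rest on. The spot at the median of the fresh healthy section held 71 UMIs of MYH1, 0 of MYH4 and 7 of MYH7. The corresponding spot of the stored healthy section held 68, 0 and 63, that of the 2-week section 180, 17 and 19, and that of the 16-week section 8, 0 and 22. Of the extremes, one of the stored healthy spots with a MYH7 share of 100% had 153 MYH7 UMIs and 0 of the other two. The spread between spots was wider than counting alone would give in every section. The SD of the MYH7 share was 16.4 points in fresh healthy muscle against 4.24 from counting, 31.2 against 5.88 in stored healthy muscle, 16.1 against 2.49 at 2 weeks and 22.6 against 6.19 at 16 weeks.

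Spots were then sorted by their largest share, as pure (at least 90% of 1 gene), leaning (70% to under 90%) or mixed (under 70%). Pure spots made up 53.3% of the fresh healthy section (50.9 to 55.7), 26.7% of the stored healthy section (24.9 to 28.6), 20.6% at 2 weeks (17.9 to 23.5) and 14.2% at 16 weeks (12.2 to 16.3). In fresh healthy muscle 894 of the 895 pure spots were pure for MYH1, and at 2 weeks 169 of 170 were. The stored healthy section had 94 pure MYH1 and 515 pure MYH7 spots, and the 16-week section 9 and 148. No spot of any section was pure or leaning for MYH4. With 0 of 826 spots at 2 weeks, up to 0.446% of spots could be of that kind within the interval.

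**Figure D2:**
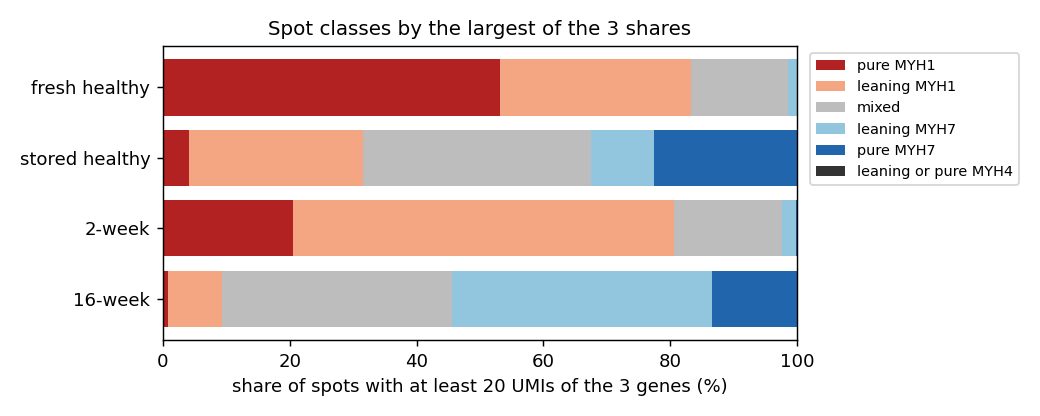
The share of kept spots (horizontal axis, %) that were pure, leaning or mixed by their largest share, for the 4 sections. Mixed spots were 15.4%, 35.9%, 16.9% and 36.3% from top to bottom, pure MYH1 spots filled 53.2% of the fresh healthy bar, and pure MYH7 spots 22.6% of the stored healthy bar.

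Spots that cover hybrid fibers or neighboring fibers of different type can be mixed, but also leaning or pure where the largest share is high. The mixed class is therefore not a count of all spots that hold a second isoform. Mixed spots made up 15.4% of the fresh healthy section (13.7 to 17.2) and 16.9% at 2 weeks (14.5 to 19.7). They were more than that in stored healthy muscle, at 35.9% (34.0 to 38.0), and at 16 weeks, at 36.3% (33.5 to 39.2). Evenly divided spots, with MYH7 between 40% and 60%, numbered 119, 410, 39 and 205 in the order of the sections. These are 7.09%, 18.0%, 4.72% and 18.5% of the kept spots. Reads of both MYH1 and MYH7 were found together in 92.1% to 98.7% of all spots, so a spot wholly without either was rare. In the stored healthy section 52 kept spots had no MYH1 UMI and 0 had no MYH7 UMI. In fresh healthy muscle 0 had no MYH1 UMI and 38 had no MYH7 UMI.

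The class counts depend on the number of UMIs behind a share and on the threshold. When each kept spot was thinned to 20 UMIs of the 3 genes, pure spots made up 59.0%, 34.1%, 38.0% and 24.6% of the sections. The 2-week value rose the most, from below the stored healthy value to above it. With a threshold of 95% the pure shares were 29.3%, 18.8%, 3.63% and 4.15%. Many spots lay near the threshold of 90%. In fresh healthy muscle 133 spots had a largest share of 90% to under 92% and 98 spots one of 88% to under 90%, and the 2-week section had 61 and 78.

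MYH4 set the 2-week section apart. At least 1 UMI of MYH4 was found in 783 of its 854 spots (91.7%, interval 89.6 to 93.5). The same held for 108 of 1950 fresh healthy spots (5.54%), 175 of 2440 stored healthy spots (7.17%) and 30 of 1726 spots at 16 weeks (1.74%). With every spot thinned to 1000 UMIs the shares were 1.96% for fresh healthy, 2.17% for stored healthy, 79.4% for 2 weeks and 0.946% for 16 weeks. Spots in which each of the 3 genes held at least 5% numbered 239 at 2 weeks, or 28.9% of kept spots (25.9 to 32.2). There were 1 such spot in fresh healthy muscle, 4 in stored healthy muscle and 0 at 16 weeks.

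Within the 2-week section MYH4 was spread unevenly, as was MYH7. The median spot had a MYH4 share of 4.11%, the middle 50% ran from 2.05% to 8.17%, and the highest value was 64.5%. A share of 20% or more was reached in 45 spots, and MYH4 was the largest of the 3 in 4. The 10% of spots richest in MYH4, 86 spots, held 42.9% of its UMIs. The 10% richest in MYH1 held 22.4% of MYH1, and the 10% richest in MYH7 held 39.8% of MYH7. By this measure MYH4 was nearly as uneven as MYH7. As a part of MYH1 plus MYH4 alone, MYH4 reached 68.0% in 1 spot, and its SD over spots was 8.12 points against 2.17 from counting. The part of the read division between the 2 genes in this spread was not tested. Without MYH4, so with MYH1 and MYH7 only, 51.5% of 2-week spots would be pure in place of 20.6%, and 10.4% mixed in place of 16.9%.

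At 2 weeks MYH4 was highest, relative to MYH1, in the spots with little MYH7. There were 8.84 MYH4 UMIs per 100 of MYH1 (8.70 to 8.99) in spots with a MYH7 share of at most 25%. The value was 5.16 (4.81 to 5.54) in spots between 25% and 75%, and 0.935 (0.253 to 2.41) in the 12 spots at 75% or more. The stored healthy section had 0.385 per 100 (0.335 to 0.442) in MYH7-poor spots and 0.229 (0.0990 to 0.453) in MYH7-rich spots, with intervals that overlap. Its intermediate spots had 0.166 (0.131 to 0.209). Its spots at 90% or more had 0.496 (0.199 to 1.02) from 7 MYH4 UMIs, and those at 75% to under 90% had 0.0482 from 1. Fresh healthy muscle had 0.140 (0.120 to 0.162) in MYH7-poor and 0.0741 (0.0383 to 0.130) in intermediate spots, and 0 MYH4 UMIs in MYH7-rich ones. At 16 weeks the values ran the other way, with 0.0378 (0.00780 to 0.111) in MYH7-poor, 0.116 (0.0730 to 0.176) in intermediate and 0.153 (0.0766 to 0.275) in MYH7-rich spots. These rest on 3, 22 and 11 MYH4 UMIs and their intervals overlap, so the order is not settled. MYH8, the perinatal myosin, did not climb steadily with MYH4 among 2-week spots with at most 25% MYH7. It stood at 3.34 UMIs per 10000 where the MYH4 share was under 2%, at 0.932 where it was 10% to under 20%, and at 3.34 in the 43 spots at 20% or more. MYL4, the embryonic light chain, stood at 2.16 per 10000 in those 43 spots (1.56 to 2.92), from 42 UMIs, and at 0.0829 to 0.411 in the others.

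Total UMIs moved with the mix in every section. When kept spots were divided into 5 equal groups by total UMIs, the pooled MYH7 share rose from 12.3% in the shallowest to 17.5% in the deepest group of the fresh healthy section. It rose from 12.0% to 17.8% at 2 weeks and from 59.0% to 72.5% at 16 weeks. The stored healthy section showed the widest range, from 40.5% to 74.7%, and most of it lay in the last step, from 51.4% in the fourth group. Only the stored healthy section rose at every step. In the fresh healthy and 2-week sections the second group was the lowest, at 11.7% and 9.96%, and the 16-week section dipped from 66.8% in the third to 66.0% in the fourth. Spearman correlations of the MYH7 share with total UMIs over spots were weak, at 0.10, 0.24, 0.09 and 0.20 for 1679, 2281, 826 and 1109 spots. Within the 5 groups they lay between -0.09 and 0.29. Total UMIs include mitochondrial ones. By the UMIs of other nuclear genes, the 2-week rise was 1.44 points in place of 5.80. The 2-week correlation was -0.03 over all kept spots and -0.46 to -0.17 within the groups by total UMIs. At similar totals, spots with more mitochondrial UMIs have fewer of other genes, so these within-group values are not a separate result on depth. Over all kept spots, the correlations with UMIs of other nuclear genes in the other sections were 0.08, 0.27 and 0.22. Spots of a section share a library and are not replicates.

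**Figure D3:**
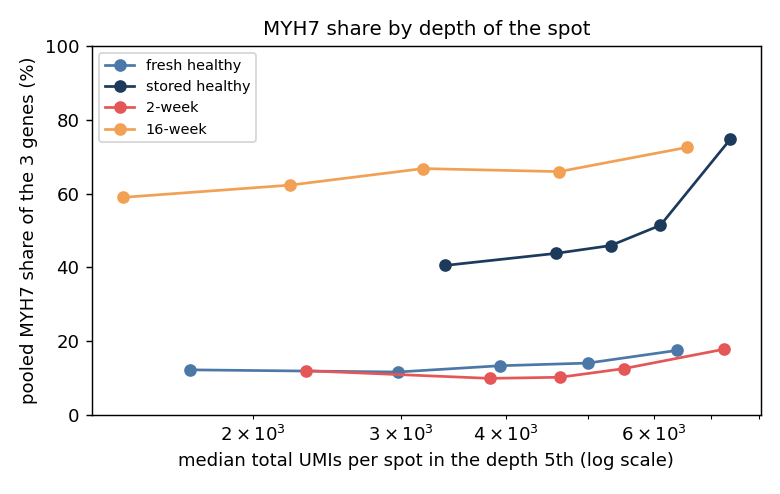
Pooled MYH7 share of the 3 genes (vertical axis, %) in 5 groups of spots by total UMIs, placed at the median UMIs of each group (horizontal axis, log scale), 1 line per section. The deepest group lies above the shallowest in each section, from 40.5% to 74.7% in stored healthy muscle and from 12.0% to 17.8% at 2 weeks.

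The share of pure spots moved with depth as well, least at 2 weeks. Pure spots there made up 24.2% of the shallowest group and 18.9% to 21.1% of the others. Mixed spots at 2 weeks made up 18.2% of the shallowest, 10.9% of the second and 25.3% of the deepest group. In the stored healthy section 45.9% of spots of the deepest group were pure, against 18.1% to 25.6% in the other groups. At 16 weeks the share rose from 5.86% in the shallowest to 25.2% in the deepest group, while mixed spots fell from 45.5% to 27.9%. In the fresh healthy section mixed spots rose instead, from 12.8% to 21.7%, and pure spots fell from 55.7% to 46.7%. The UMIs behind a share rose with depth too. From the shallowest to the deepest group, the median of the 3 genes went from 51 to 152 in stored healthy muscle. At 16 weeks it went from 30 to 177.5. The part of this in the classes was not tested. The 3 myosins together took less of an intermediate than of a MYH7-poor spot in each section. The median of their sum per 10000 UMIs was 255 in MYH7-poor, 190 in intermediate and 223 in MYH7-rich spots of fresh healthy muscle. It was 211, 147 and 187 in stored healthy muscle, 639, 447 and 341 at 2 weeks, and 341, 228 and 246 at 16 weeks. From intermediate to MYH7-rich spots it went on falling at 2 weeks only.

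Type I fibers are known for many mitochondria, so the mitochondrial share of UMIs was compared between spots with little and with much MYH7. The 2-week section showed the clearest difference. The median mitochondrial share was 31.8% in 692 spots with at most 25% MYH7 (31.2 to 32.3), 40.6% in 122 spots between 25% and 75% (39.2 to 41.5) and 43.1% in 12 spots with at least 75% (36.9 to 46.6). The first 2 groups differed in the same direction in each of the 5 depth groups, where the MYH7-poor spots had 31.3% to 33.3% and the intermediate ones 39.8% to 41.4%. The correlation with the MYH7 share was 0.51 over 826 spots. With the MYH4 share it was -0.38. Among 2-week spots with at most 25% MYH7, the median was 36.8% where MYH4 was under 2% and 30.01% where it was at least 20%. The 2-week groups by MYH7 share also differed in markers of other tissues. The 7 connective tissue markers summed to 140 UMIs per 10000 in MYH7-poor, 113 in intermediate and 49.6 in MYH7-rich spots. The 5 vessel wall markers summed to 6.74, 3.03 and 2.37. The 4 adipose markers rose, at 5.94, 7.67 and 8.36, and the 7 macrophage markers stood at 1.33, 1.36 and 1.42. In each group almost all or all of the adipose UMIs were of LPL, so the adipose rise is that of LPL. Whether these tissues have a part in the mitochondrial share was not tested.

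Elsewhere the relation was small or turned. In the fresh healthy section the medians were 48.6% in 1339 MYH7-poor spots, 49.8% in 328 intermediate spots and 52.3% in 12 MYH7-rich spots (46.2 to 57.4). In the stored healthy section they were 50.2% in 580 spots (49.9 to 50.6), 52.0% in 1018 (51.7 to 52.2) and 48.4% in 683 (48.1 to 48.8), so over all depths the MYH7-rich spots had the lowest. The 16-week section had 37.5% in 74 spots (34.3 to 40.3), 33.9% in 504 (33.0 to 34.5) and 36.1% in 531 (34.9 to 36.8). Correlations over spots were 0.18, -0.17 and 0.02 for these 3 sections. Depth entered at 16 weeks, where the mitochondrial share had a correlation of 0.41 with total UMIs. Within each of the 5 depth groups of that section the MYH7-rich spots were below the MYH7-poor ones, from 28.7% against 34.5% in the shallowest to 41.4% against 47.5% in the deepest group. The mean of these differences was -3.92 points, against -1.38 over all depths, and the depth groups held 10 to 25 MYH7-poor spots each. In stored healthy muscle the shallowest group had 50.2% in MYH7-rich and 48.6% in MYH7-poor spots, while the deepest had 45.0% and 50.6%.

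**Figure D4:**
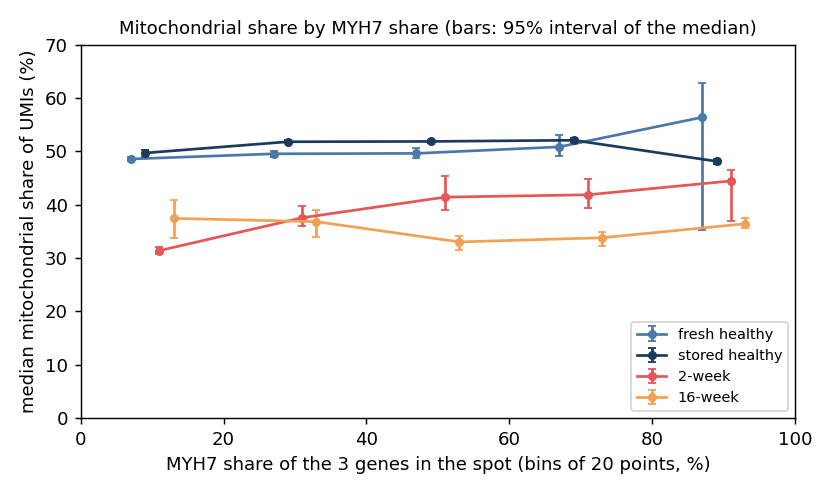
Median mitochondrial share of UMIs (vertical axis, %) in spots grouped by their MYH7 share in bins of 20 points (horizontal axis, %), with bars for the 95% interval of the median and points shifted sideways for legibility. The 2-week line climbs from 31.4% in the first bin to 44.5% in the last, which has 6 spots, while the stored healthy line is highest at 52.1% between 60% and 80% and falls to 48.1% above.

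In stored healthy muscle the mitochondrial share was low at both ends of the mix. The 102 spots with at most 10% MYH7 had a median of 48.0% (45.7 to 49.5), below the 52.0% of intermediate spots. Among the MYH7-rich spots the drop lay in the pure ones. The section's 168 spots with 75% to under 90% MYH7 had a median mitochondrial share of 51.4% (50.6 to 52.0), and its 515 spots at 90% or more had 47.2% (46.3 to 47.8). The same 515 spots were deep, with a median of 6201 UMIs against 5023 in the MYH7-poor spots. They also differed in markers of other cells. The 7 connective tissue markers with a feature summed to 81.2 UMIs per 10000 in them (80.2 to 82.2), to 40.8 in the spots at 75% to under 90% and to 30.3 in the MYH7-poor spots. SPARC was at 0 in all 3 groups. The 7 macrophage markers summed to 1.92, 0.564 and 0.785 per 10000, with CD163 at 0 in the last 2 groups. The 5 vessel wall markers summed to 5.34, 2.90 and 3.44. Whether these cells have a part in the mitochondrial share was not tested.

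Genes that the sorting did not use were compared between MYH7-rich spots (at least 75%) and MYH7-poor spots (at most 25%) within each section. The lists were 15 genes of slow fibers, of which 12 had a feature, and 18 of fast fibers, of which 8 had one. The median log2 ratio over the tested slow genes was 2.01 in fresh healthy muscle, 2.01 in stored healthy muscle, 1.99 at 2 weeks and 1.69 at 16 weeks. Over the fast genes it was -1.42, -1.70, -2.16 and -1.67. Over all genes it lay between 0.11 and 0.30. In the fresh healthy section 9 of 11 slow genes were at least 2-fold higher in MYH7-rich spots and 6 of 8 fast genes at least 2-fold lower. Among all genes 18.2% were that much higher and 11.8% that much lower. The stored healthy section had 8 of 12 slow genes higher and 7 of 8 fast genes lower, against 10.9% and 2.62% of all genes. At 2 weeks the counts were 9 of 11 and 8 of 8, against 13.4% and 19.6%. At 16 weeks they were 9 of 12 and 7 of 8, against 7.85% and 2.59%. The MYH7-rich spots numbered 12 in fresh healthy muscle and 12 at 2 weeks, against 683 and 531 in the other two.

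Of the slow genes, MYL2, the regulatory light chain of slow and cardiac muscle, stood at 216 UMIs per 10000 in MYH7-rich and 36.6 in MYH7-poor spots of the fresh healthy section, a ratio of 5.89 (5.57 to 6.23). The ratio was 4.23 in stored healthy muscle, 4.40 at 2 weeks and 2.98 at 16 weeks. TNNC1, the slow and cardiac troponin C, gave 7.77, 4.02, 4.68 and 3.76. MYL3, the slow essential light chain, gave 6.62, 3.19, 3.97 and 3.34. The feature named TNNI1 went the other way in each section. TNNI1 encodes slow troponin I, yet its ratios were 0.740 (0.664 to 0.824), 0.559 (0.545 to 0.573), 0.620 (0.558 to 0.686) and 0.774 (0.735 to 0.815). No other slow gene with a tested ratio was below 1 in any section.

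Of the fast genes, MYL1, the fast essential light chain, stood at 160 UMIs per 10000 in MYH7-poor and 49.5 in MYH7-rich spots of the fresh healthy section, a ratio of 0.310 (0.277 to 0.347). It gave 0.236 in stored healthy muscle, 0.148 at 2 weeks and 0.249 at 16 weeks. ATP2A1, the calcium pump of fast fibers, gave 0.365, 0.224, 0.142 and 0.161. The tropomyosin gene TPM1 gave 0.317, 0.332, 0.273 and 0.354, and ENO3, the muscle enolase of glycolysis, gave 0.381, 0.292, 0.184 and 0.287. Each of these 4 was lower in the MYH7-rich spots of every section.

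**Figure D5:**
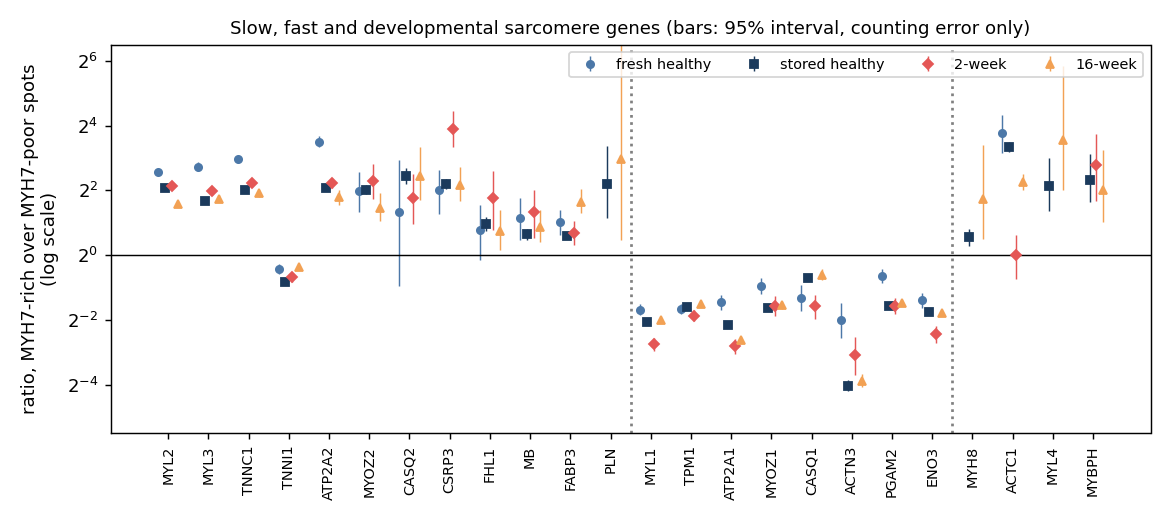
Ratio of UMIs per 10000 in MYH7-rich over MYH7-poor spots (vertical axis, log scale) for each tested gene of the slow, fast and developmental lists (horizontal axis, divided by dotted lines), 1 symbol per section with bars for the 95% interval. Genes at 0 UMIs in the MYH7-rich spots are not drawn, and 1 bar runs past the top. The slow genes lie above 1 except TNNI1 and the fast genes below 1, while ACTC1 lies at 10.2 in stored healthy muscle and 0.991 at 2 weeks.

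Among developmental sarcomere genes, 4 of 5 had a feature. At least 2-fold higher in MYH7-rich spots were 1 of 2 tested in the fresh healthy, 3 of 4 in the stored healthy, 1 of 4 in the 2-week and 4 of 4 in the 16-week section, against 18.2%, 10.9%, 13.4% and 7.85% of all genes. At 2 weeks MYH8 and MYL4 passed the limit for at least 2-fold lower, as did 19.6% of all genes, both with 0 UMIs in the 12 MYH7-rich spots, and the interval of MYL4 includes 1. ACTC1, the cardiac actin that is also made in developing and regenerating skeletal muscle, had 5298 UMIs in the MYH7-rich and 367 in the MYH7-poor spots of the stored healthy section. These are 12.9 and 1.28 per 10000, a ratio of 10.2 (9.13 to 11.3). Its ratio was 13.6 (8.92 to 20.1) in fresh healthy muscle, from 30 UMIs in 12 spots, 4.77 (4.05 to 5.66) at 16 weeks and 0.991 (0.603 to 1.54) at 2 weeks. In those 12 fresh healthy spots the upper quartile of the summed developmental list was 0. The 30 UMIs thus came from few spots, and the interval does not cover the spread between spots. MYH8 gave 1.47 (1.23 to 1.76) in stored healthy muscle and 3.34 (1.40 to 10.5) at 16 weeks. At 2 weeks it had 0 UMIs in the 12 MYH7-rich spots, 213 in the 122 intermediate spots and 760 in the 692 MYH7-poor ones. The ratio of MYH7-rich to MYH7-poor spots was at most 0.255 within the interval, but intermediate spots did hold MYH8, so no steady fall with MYH7 is shown. MYL4 had 0 UMIs in the MYH7-rich and 114 in the MYH7-poor spots at 2 weeks, with an upper bound of 1.73. It gave ratios of 4.35 (2.55 to 7.91) in stored healthy muscle and 11.8 (3.99 to 57.4) at 16 weeks. MYBPH, a myosin-binding protein, gave 5.03 (3.10 to 8.62) in stored healthy muscle, 6.90 (3.18 to 13.4) at 2 weeks and 4.05 (2.02 to 9.48) at 16 weeks.

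The genes whose levels followed each myosin most closely over spots were found by Spearman correlation after thinning every spot to 1000 UMIs, which left 1684, 2347, 801 and 1374 spots. The mean over sections is given, without a test. For MYH7, out of 303 genes, the leading ones were MYL2 at 0.72, TNNC1 at 0.66, MYL3 at 0.63, STRIT1 at 0.53 and C1orf43 at 0.51. STRIT1 encodes a small peptide that activates the calcium pump. The most opposed were MYL1 at -0.34, TPM1 at -0.30, ALDOA at -0.30, MYH1 at -0.27 and ATP2A1 at -0.24. For MYH1 the leading genes were ALDOA, a glycolytic aldolase, at 0.58, MYL1 at 0.57, ATP2A1 at 0.55, TPM1 at 0.53 and ENO3 at 0.49. ALDOA and MYL1 changed places when spots were thinned to 500 non-mitochondrial UMIs, at 0.51 and 0.52, and without thinning, at 0.65 and 0.66.

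The opposition of MYH1 and MYH7 differed in size between sections. Their correlation was -0.24 in fresh healthy muscle, -0.51 in stored healthy muscle, -0.36 at 2 weeks and 0.04 at 16 weeks. TPM1 against MYH7 likewise was -0.60 in stored healthy muscle and 0.06 at 16 weeks. Whether the sections differ in this beyond animal and section was not tested. The 16-week correlations used 1374 spots, while 1109 had at least 20 UMIs of the 3 genes, so spots poor in these genes entered. The numbers were closer in the other sections, at 1684 against 1679 in fresh healthy muscle, 2347 against 2281 in stored healthy muscle and 801 against 826 at 2 weeks. The correlation of MYH1 with MYH7 in muscle-rich spots alone was not tested, so a loss of their opposition at 16 weeks is not shown. MYH4 could be ranked at 2 weeks only, where MYL1 led at 0.49, followed by ATP2A1 at 0.47, TPM1 at 0.44, ALDOA at 0.42 and MYH1 at 0.37 out of 357 genes.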

How the data were processed

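The deposited count matrices, 1 per section, hold UMI counts per gene and spot that the authors made with Space Ranger 1.2.0 on the rabbit build OryCun2.0, after aligning the tissue images by hand. Raw counts were used as deposited. The deposited position files carry no barcodes and were not used, so no spot could be placed in its section. Samples were grouped by label. The 37 mitochondrial genes were found by their neighboring identifiers. Shares of spots and of UMIs have exact binomial intervals, UMI sums exact Poisson intervals, ratios of UMI levels exact conditional intervals and medians order-statistic intervals, at 95%. For ratios of mitochondrial medians, the ends of the 2 median intervals were divided by each other. The result is not an exact 95% interval of the ratio. PCR duplicates are removed by the UMIs. Ratios over all genes used a pseudocount of 0.5. Scripts ran in Python 3.11.15 with numpy 2.4.6 and scipy 1.17.1, and were tested on simulated data. Named genes were the 3 myosins, the other MYH features, the 4 members of each list with most UMIs, and, for each myosin, the 5 genes with the highest mean correlation among those with at least 500 UMIs, with the 5 lowest for MYH7. The genes, lists and thresholds were chosen with earlier results of these data known. Alternatives covered the minimum of UMIs, the thresholds, thinning and the denominators.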

Additional observations from a re-analysis of the deposited data

Results flagged for a closer look

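The 3 myosins moved in opposite directions at the 2 times after tenotomy when each section was set against the same stored healthy section. MYH1 was at 5.69 times the stored level at 2 weeks and 0.925 at 16 weeks, MYH4 at 171 and 0.380, and MYH7 at 0.755 and 1.56. These are UMIs per 10000. Against the median gene, the MYH7 values are 0.5002 at 2 weeks and 0.840 at 16 weeks, so MYH7 no longer moves in opposite directions on that scale. MYH1 at 16 weeks was at 1.001 in spots with at least 20 UMIs of the 3 genes, so its opposite direction does not hold there. The direction of MYH7 also depends on the healthy section used. MYH7 stood at 33.7 per 10000 in the fresh healthy section, below its 77.4 at 2 weeks and 160 at 16 weeks. Against the fresh section, at 200 and 0.265 per 10000, MYH1 and MYH4 were still higher at 2 weeks and lower at 16 weeks. The difference between times was not tested, since each time is 1 section.

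The median mitochondrial share in MYH7-rich spots was 1.36 times that in MYH7-poor spots at 2 weeks (1.14 to 1.49, with 12 MYH7-rich spots) and 0.964 times in the stored healthy section (0.949 to 0.979). With limits of 10% and 90% the stored healthy ratio was 0.983, with an interval that includes 1 (0.936 to 1.05). The difference in direction between the 2 sections was not tested.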

How the results depend on the processing

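Of 138 values under another setting, 80 stayed within the interval of the value given above, or, for counts of genes, within 1.5 times it, or, for 8 correlations, kept their sign. Another 57 moved outside it, and 1 value whose interval did not include 1 turned. That value is MYH1 at 16 weeks over stored healthy, at 1.001 in spots with at least 20 UMIs of the 3 genes. Averaged over kept spots in place of pooling UMIs, the MYH1 share was 84.4% in fresh healthy, 46.8% in stored healthy, 78.7% at 2 weeks and 33.0% at 16 weeks, the MYH7 share 15.5%, 53.1%, 14.9% and 66.9%, and the MYH4 share 0.105% in stored healthy and 6.44% at 2 weeks. With at least 50 UMIs of the 3 genes, pure spots were 56.1% in fresh healthy, 29.6% in stored healthy and 18.0% at 16 weeks, and mixed spots 32.2% in stored healthy and 31.0% at 16 weeks. Thinned to 20 UMIs, pure spots were 59.0%, 34.1%, 38.0% and 24.6%, and mixed spots 30.4% in stored healthy and 32.2% at 16 weeks. Pure spots were 29.3%, 18.8%, 3.63% and 4.15% at a threshold of 95%, and 74.6%, 45.3%, 61.5% and 41.9% at 80%. With MYH1 and MYH7 only, 2-week spots were 51.5% pure and 10.4% mixed. The gain in MYH7 share from the shallowest to the deepest group was 5.27 points in fresh healthy, 34.1 in stored healthy, 5.80 at 2 weeks and 13.6 at 16 weeks. By UMIs that are neither mitochondrial nor of the 3 genes it was 3.24, 36.3, 1.44 and 16.1, and with at least 50 UMIs 7.90 in fresh healthy, 40.3 in stored healthy and 6.51 at 2 weeks. The mitochondrial ratio of MYH7-rich to MYH7-poor spots was 0.923 in stored healthy and 1.57 at 2 weeks per UMI of other nuclear genes. With limits of 10% and 90% it was 0.983 in stored healthy, with an interval that includes 1 (0.936 to 1.05). At 16 weeks it was 1.14 with those limits, on the other side of 1 from 0.963 (0.866 to 1.07), with 9 MYH7-poor spots. MYH4 was found with at least 2 UMIs in 0.974%, 1.72%, 84.3% and 0.348% of spots, and after thinning to 1000 UMIs in 1.96%, 2.17%, 79.4% and 0.946%. Per UMI of non-mitochondrial genes, the 2-week over stored healthy ratios were 4.37 for MYH1, 131 for MYH4 and 0.579 for MYH7, and the 16-week ratios 0.718 for MYH1 and 1.21 for MYH7. In spots with at least 20 UMIs of the 3 genes, the 2-week ratio of MYH1 was 5.64 and the 16-week ratio of MYH7 1.69. The causes were not tested. Limits of 10% and 90% gave no value in fresh healthy and at 2 weeks, where 1 spot reached 90% MYH7. The within-depth comparison of MYH7-rich with MYH7-poor spots gave none there either, for lack of spots. No paired analysis was possible because each condition is 1 section. Outside the 2-week section MYH4 rests on 42 to 292 UMIs, at 0.0885 to 0.265 per 10000, which limits its values there.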

Other observations

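The pooled MYH7 share varied with the array position that a barcode marks. In the stored healthy section it was 38.2% over 709 spots whose barcodes also lay under tissue in the fresh healthy and 16-week sections but not in the 2-week section. It was 82.0% over 512 spots whose barcodes lay under tissue in all 4 sections, and 96.8% over 34 spots shared with the 2-week and 16-week sections only. The fresh healthy section gave 13.3% and 15.0% for the same sets of 709 and 512 barcodes, the 2-week section 12.0% for the 512, and the 16-week section 59.7% and 67.8%. Over barcodes common to a pair of sections, the correlation of the MYH7 share was 0.30 between the stored healthy and 16-week sections (890 barcodes) and -0.33 between the stored healthy and 2-week sections (588 barcodes). The other 4 pairs gave -0.16 between fresh healthy and 16 weeks, -0.04 between fresh healthy and 2 weeks, -0.01 between the healthy sections and 0.01 between 2 and 16 weeks.

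In the 16-week section the developmental sarcomere list stood at 6.00 UMIs per 10000 in MYH7-poor, 18.1 in intermediate and 28.9 in MYH7-rich spots. It stood at 2.02, 2.60 and 14.4 in the stored healthy section of the same rabbit, at 6.04, 5.20 and 4.73 at 2 weeks, and at 0.490, 0.739 and 4.89 in the fresh healthy section. The 4.89 rests on few of 12 spots, whose upper quartile was 0. At 2 weeks the upper quartiles over spots were 2.83, 1.77 and 3.53, each below the pooled value. A minority of spots thus weighs heavily in the 2-week values, and their order need not hold for typical spots. ACTC1 made up most of the sum in MYH7-rich spots, with 5503 of 6165 UMIs at 16 weeks and 5298 of 5909 in the stored healthy section. The adipose list of 4 genes stood at 6.52, 12.1 and 11.4 at 16 weeks, with LEP at 0 in each group. LPL made up most of the sum in each of these groups, so the values are mainly those of LPL. Whether they follow adipose tissue was not tested.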
